A study of Mus musculus with 8 samples.

Results

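The ion channel genes Scn4a, Scn3b and Clcn1 were followed through the embryonic mouse diaphragm. Scn4a encodes the pore-forming alpha subunit NaV1.4 of the muscle sodium channel, Scn3b encodes an accessory beta subunit of voltage-gated sodium channels, and Clcn1 encodes the muscle chloride channel ClC-1. They were chosen by symbol, as 3 of the 19465 genes listed for the sections, with earlier results of these data known. In the files they carry the identifiers ENSMUSG00000001027 for Scn4a, ENSMUSG00000049281 for Scn3b and ENSMUSG00000029862 for Clcn1. In the RefSeq annotation of GRCm38.p6 Scn4a lies at chr11:106317545-106365559, Scn3b at chr9:40269216-40291618 and Clcn1 at chr6:42284851-42315764.

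An action potential in a muscle fiber starts at the neuromuscular junction, where current through acetylcholine receptors opens sodium channels, and it travels from there along the sarcolemma and into the T-tubules. NaV1.4 carries the upstroke of that action potential, and beta subunits change how sodium channels gate and where they reside. ClC-1 carries the resting chloride conductance of mature muscle, which steadies the membrane potential, and its loss causes myotonia, a delayed relaxation due to repetitive firing. CaV1.1, the voltage sensor of excitation-contraction coupling, acts downstream of these channels.

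Spatial gene expression was measured with the 10x Genomics Visium FFPE assay, in which probe pairs for each gene are captured on spots of 55 µm diameter at a spacing of 100 µm, on 5 µm sections of fixed, paraffin-embedded diaphragm. The series holds 8 sections in 5 groups: 3 controls at E14.5, 2 controls at E18.5, 1 CaV1.1 KO at E14.5, 1 CaV1.1 KO at E18.5 and 1 bCat cKO at E18.5. The CaV1.1 KO embryos (CaV1.1 -/-, dysgenic) lack the CaV1.1 channel in the whole body, whereas the bCat cKO (HSA-Cre; β-catenin flox/flox) loses β-catenin in skeletal muscle only, through Cre under the human skeletal actin promoter. Controls kept at least 1 expressing allele of each of these genes, and each section came from a separate embryo. Each mutant group is 1 section, so that tests of a mutant assume that its single section varies as the controls do, and what belongs to that embryo cannot be told apart from its genotype.

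Values are counts of unique molecular identifiers (UMIs). Spots with at least 1000 UMIs were kept, 683 to 3460 per section, and the sections hold 14179161 to 82859104 UMIs. Muscle spots, 491 to 3092 per section, were those with a high mean level of 9 muscle genes (the structural genes Actn2, Des, Neb and Ttn, the calcium release channel gene Ryr1, and Acta1, Myl1, Mylpf and Tnnt3 of the contractile filaments). Within muscle, center spots were the 15% with the highest score of 8 endplate genes (among them the acetylcholine receptor subunits Chrna1, Chrnd and Chrng and the kinase Musk), periphery spots were the 15% with the highest score of 4 genes of the myotendinous junction (Col22a1, Ankrd1, Rxrg and Uchl1), and the rest were called intermediate. Scn4a, Scn3b and Clcn1 are in none of these lists. UMIs were summed over the spots of a class in each section, so that sections and not spots were the replicates, and are given as CPM (UMIs of a gene per 1000000 UMIs of the sum) after TMM scaling, a scaling that sets the bulk of genes equal between sums. Tests are edgeR's quasi-likelihood F test over all genes with Benjamini-Hochberg adjustment, and a gene is said to have risen or fallen where its adjusted p was under 0.05. Because each gene is read by its own probes, levels were compared between samples and not between genes.

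The 9 muscle genes made up 16235 to 27362 CPM (before TMM scaling) of the muscle spots at E14.5, 128417 and 131917 in the E18.5 controls, 71384 in the CaV1.1 KO at E18.5 and 105199 in the bCat cKO. A spot can hold several cell types, and fewer cells of a type and less RNA per cell cannot be told apart in these sums. Cacna1s, the gene of CaV1.1, stood at 16.5, 14.96 and 18.4 CPM in the E14.5 controls and 13.4 in the CaV1.1 KO of that age (log2 difference −0.30, edgeR adjusted p = 0.340), and at 84.4 and 87.3 CPM in the E18.5 controls and 29.7 in the CaV1.1 KO (log2 difference −1.53, edgeR adjusted p = 0.00133). The E18.5 call depends on the scaling. With the 9 muscle genes in place of TMM, Cacna1s was not called lower in this KO. Ctnnb1, the gene of β-catenin, stood at 105 and 97.4 CPM in the E18.5 controls and 96.2 in the bCat cKO (log2 difference −0.07, edgeR adjusted p = 0.770). Where the probes of Ctnnb1 lie relative to the floxed exons was not analysed here, so this value does not test the label.

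For Scn4a and Clcn1, which both rose during development, the 250 bases upstream of 1 RefSeq transcript start per gene are shown (GRCm38.p6, 5′ to 3′ in the direction of transcription). The window of Scn4a is chr11:106349391-106349640 on the minus strand and that of Clcn1 is chr6:42286435-42286684 on the plus strand. Capitals mark matches, on either strand, to the E-box CANNTG, which is bound by myogenic bHLH factors, to the MEF2 site, and to the N-box CCGGAA of synaptic genes.
Scn4a: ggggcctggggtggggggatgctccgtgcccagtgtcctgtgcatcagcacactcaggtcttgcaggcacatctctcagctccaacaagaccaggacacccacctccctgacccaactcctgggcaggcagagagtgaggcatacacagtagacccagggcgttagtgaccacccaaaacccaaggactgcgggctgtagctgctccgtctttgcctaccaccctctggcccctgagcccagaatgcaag
Clcn1: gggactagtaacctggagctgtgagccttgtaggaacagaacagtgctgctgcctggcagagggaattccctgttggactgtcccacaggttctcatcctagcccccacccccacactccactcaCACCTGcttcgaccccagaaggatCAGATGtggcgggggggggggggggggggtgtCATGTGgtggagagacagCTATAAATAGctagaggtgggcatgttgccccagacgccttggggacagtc
The Clcn1 window held 3 E-boxes, at positions -125 to -120 (CACCTG), -101 to -96 (CAGATG) and -69 to -64 (CATGTG) before the transcript start, and 1 MEF2 match at -51 to -42 (CTATAAATAG). The Scn4a window held 0 matches to any of these 3 motifs. Both windows lie inside the gene spans given above, which extend farther upstream, and sequence before any other transcript start was not examined. Among 32851 promoter windows of the same length, 66.2% held at least 1 E-box, 12.2% held at least 3, 2.92% held a MEF2 match and 12% held an N-box. The E-boxes and the MEF2 match do not overlap each other, and a match is a string of letters, not a bound site. The transcript start used here was identical to a GENCODE M21 transcript start for Clcn1 and lay 1 base from one for Scn4a. Promoter sequence was not shown for Scn3b.

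In the controls all 3 genes were higher in muscle spots than in the other spots, with the smallest difference for Scn3b at E18.5. In the E14.5 controls muscle spots exceeded the other spots over tissue 4.09-fold for Scn4a (log2 difference 2.03, SE 0.17, edgeR adjusted p = 2.82e-04), 3.36-fold for Scn3b (1.75, SE 0.17, edgeR adjusted p = 4.98e-04) and 2.78-fold for Clcn1 (1.47, SE 0.23, edgeR adjusted p = 0.00335). Of all genes tested, 23.0% were higher in muscle spots at this age. In the E18.5 controls the ratios were 5.39-fold for Scn4a (edgeR adjusted p = 6.24e-05), 5.01-fold for Clcn1 (edgeR adjusted p = 1.44e-04) and 2.03-fold for Scn3b (edgeR adjusted p = 0.00475), against 31.1% of all genes that were higher. The E18.5 value of Scn3b depended on the processing: its log2 difference of 1.02 became 0.34 with library totals in place of TMM (edgeR adjusted p = 0.182) and 0.75 without E18.5 control 1 (edgeR adjusted p = 0.0548). Before TMM scaling, Scn3b stood at 50.2 CPM in muscle and 32.3 in other spots of E18.5 control 1, at 42.2 and 40.6 in control 2, at 54.7 and 36.8 in the bCat cKO, and at 38.0 and 43.6 in the CaV1.1 KO of that age, where the other spots were the higher. Spots with at least 5000 UMIs were also thinned to 5000 UMIs, with shallower spots left out. At least 1 UMI of Scn4a was then found in 39.5% and 42.9% of muscle spots of the E18.5 controls, against 16.7% and 14.8% of their other spots. The same shares were 11.7% and 11.4% against 4.18% and 3.09% for Clcn1, and 17.3% and 16.2% against 14.8% and 11.7% for Scn3b.

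Between E14.5 and E18.5, the sodium channel gene Scn4a and the chloride channel gene Clcn1 rose in control muscle, while the beta subunit gene Scn3b fell. Scn4a stood at 39.7, 25.7 and 35.7 CPM in the 3 E14.5 controls (mean 33.7 ± 7.24, SD, n = 3) and at 142.7 and 158.7 in the 2 E18.5 controls (mean 150.7 ± 11.3, SD, n = 2). Both E18.5 sections lay far above all 3 E14.5 sections, and the fitted rise was 4.49-fold (log2 2.17, SE 0.17, edgeR adjusted p = 1.86e-05). Clcn1 was read with few UMIs at the earlier age, 142, 183 and 59 over all muscle spots of a section, which corresponds to 6.0, 5.1 and 3.7 CPM (mean 4.93 ± 1.15, SD, n = 3). At E18.5 it had reached 33.3 and 33.8 CPM (1835 and 1558 UMIs), a rise of 6.73-fold (log2 2.75, SE 0.17, edgeR adjusted p = 7.09e-06). Scn3b moved in the opposite direction, from 135.7, 116.2 and 136.1 CPM (mean 129.3 ± 11.4, SD, n = 3) to 69.1 and 57.6 CPM (mean 63.4 ± 8.12, SD, n = 2), a 2.04-fold fall (log2 −1.03, SE 0.11, edgeR adjusted p = 1.19e-04). For none of the 3 genes did the E14.5 and E18.5 controls overlap. The share of all genes without overlap was not counted, so this does not set the 3 genes apart. Endplate genes summed to 2015 to 2390 CPM (before TMM scaling) in the muscle spots of the E14.5 controls and to 1046 and 1057 at E18.5, and Schwann markers to 197 to 267 and to 58 and 64. In intermediate spots alone the fall of Scn3b was larger (log2 −1.67, edgeR adjusted p = 9.27e-06), and the part of Schwann cells in it was not tested. Such changes were common in this comparison, in which 33.2% of all genes tested were higher and 32.3% were lower at E18.5.

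**Figure D1:**
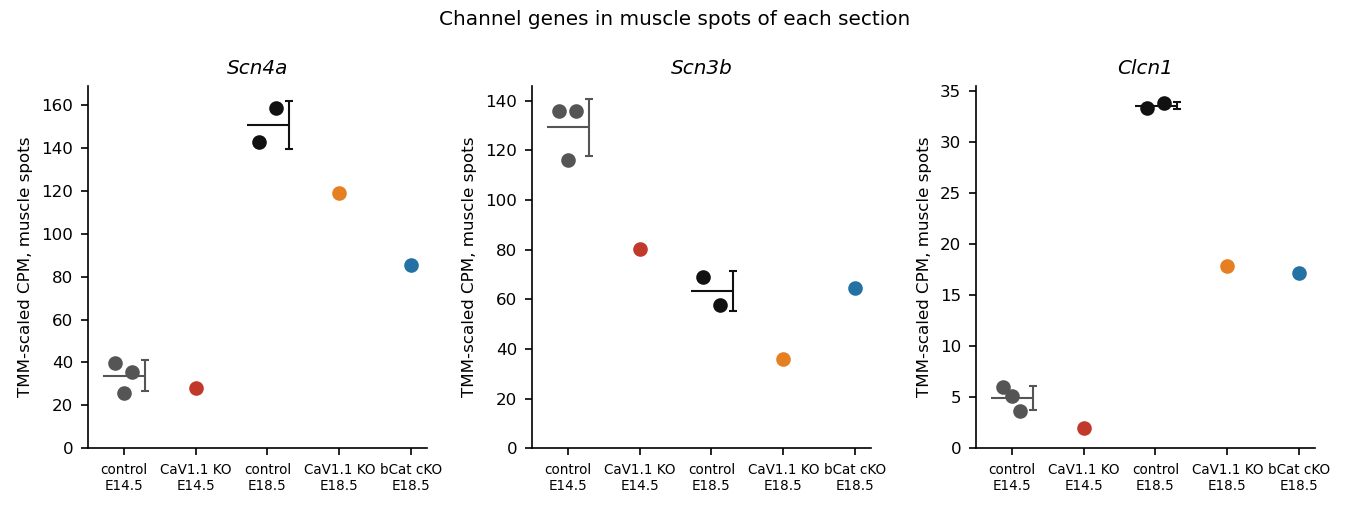
Level of Scn4a, Scn3b and Clcn1 in muscle spots of each section, in TMM-scaled CPM from 0, with 1 point per section, bars at the group mean and error bars of 1 SD for the control groups. Scn4a and Clcn1 were higher and Scn3b lower in both E18.5 controls than in all 3 E14.5 controls under this scaling. Relative to the 9 muscle genes, Scn4a and Clcn1 were lower at E18.5, Clcn1 without passing the test.

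The size and the sign of these changes depend on what the sums are measured against. With library totals in place of TMM, the median log2 difference of all genes between the ages was −0.73, of the genes that differed 20.0% were higher at E18.5 in place of 50.7%, the rises of Scn4a and Clcn1 shrank to log2 1.45 and 2.04, and the fall of Scn3b grew to −1.75, all still past the threshold. Against the summed UMIs of the 9 muscle genes the median of all genes was −3.19 and 1.47% of the genes that differed were higher. On that scale Scn4a was lower at E18.5 (−0.99, edgeR adjusted p = 4.49e-06), Clcn1 was at −0.40 (edgeR adjusted p = 0.164) and Scn3b was at −4.20.

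**Figure D2:**
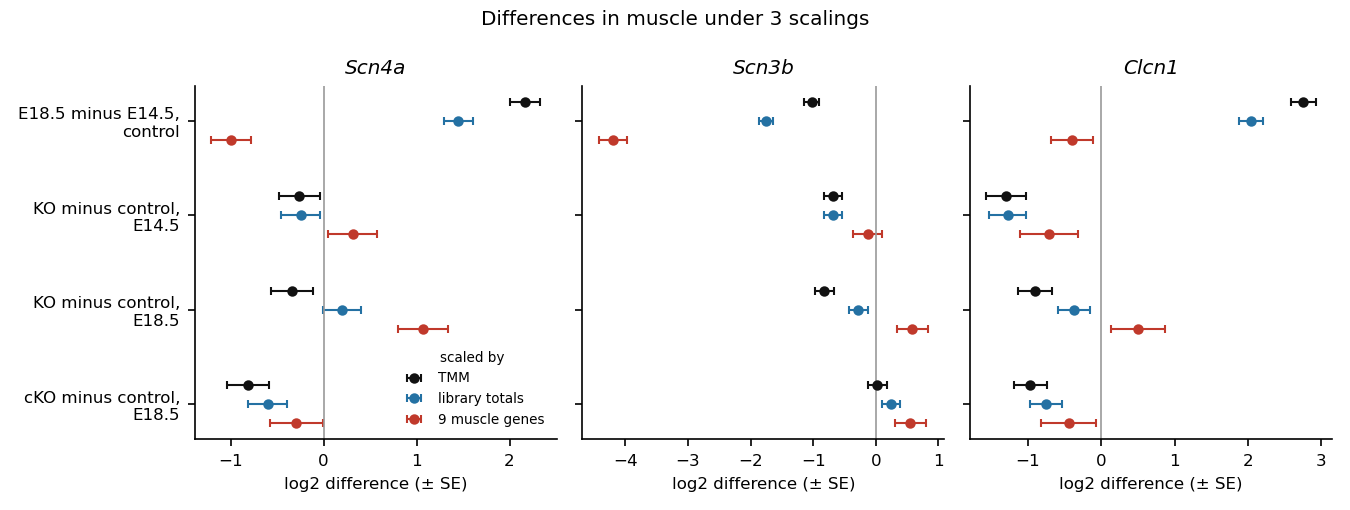
Log2 differences of Scn4a, Scn3b and Clcn1 with their standard errors for 4 comparisons in muscle spots (E18.5 against E14.5 controls, CaV1.1 KO against control at E14.5 and at E18.5, bCat cKO against control at E18.5) under TMM scaling, library totals and the 9 muscle genes. Relative to the 9 muscle genes, Scn4a and Clcn1 fell below 0 for stage, and all 3 genes rose above 0 in the CaV1.1 KO at E18.5.

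Within the muscle, Scn3b was concentrated in the center spots, and more so at E18.5. At E14.5 it stood at 223.6, 210.9 and 217.0 CPM in center spots of the 3 controls and at 116.7, 99.7 and 125.1 in intermediate spots, a 1.94-fold difference (log2 0.95, SE 0.06, edgeR adjusted p = 1.12e-13). At E18.5 the center held 233.3 and 180.3 CPM and the intermediate muscle 36.4 and 35.0 CPM, which made the ratio 5.78-fold (log2 2.53, SE 0.07, edgeR adjusted p = 1.14e-23). Every control section had more Scn3b in the center than in either other region. The E18.5 centers lay on either side of the E14.5 centers, while every intermediate and periphery value of E18.5 lay below every one of E14.5. The increase of the center-to-intermediate ratio with age was itself past the threshold (log2 1.58, SE 0.09, edgeR adjusted p = 5.77e-14). Endplate genes summed to 3493 to 3991 CPM (before TMM scaling) in the center at E14.5 and 2015 to 2390 in all muscle. At E18.5 they summed to 2993 and 2880 against 1046 and 1057. The 15% rule thus set the center apart less at E14.5, and its part in the increase was not tested. Between periphery and intermediate spots Scn3b did not pass the test at E14.5 (log2 −0.07, 95% interval −0.21 to 0.06) or at E18.5 (0.11, 95% interval −0.07 to 0.29), and at E18.5 the sign differed between the controls (44.9 against 36.4 CPM in control 1, 31.7 against 35.0 CPM in control 2).

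Levels were also read by distance from the nearest of these same center spots. The first class is the center itself, so the profile shows reach and is not a separate test of the gradient. In E18.5 control 1, Scn3b fell from 179 CPM (before TMM scaling) at the center to 34.9 CPM within 150 µm, and it was 23.8, 24.1 and 26.8 CPM at 150 to 250 µm, 250 to 450 µm and farther. In E18.5 control 2 the 5 values were 136, 31.0, 24.5, 21.4 and 23.3 CPM. At E14.5 the decline was shallower, as in control 1 with 251, 151, 118, 125 and 115 CPM. Across single muscle spots, the log-normalized Scn3b level had a Pearson r of 0.52 (3092 spots) and 0.55 (2199 spots) with Chrna1 in the E18.5 controls, and of 0.31, 0.42 and 0.13 in the E14.5 controls (549 to 581 spots). Spots of a section share one library and differ in depth, so these coefficients describe the sections and carry no p. For Clcn1 the coefficients with Chrna1 were −0.01 and 0.00 at E18.5.

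**Figure D3:**
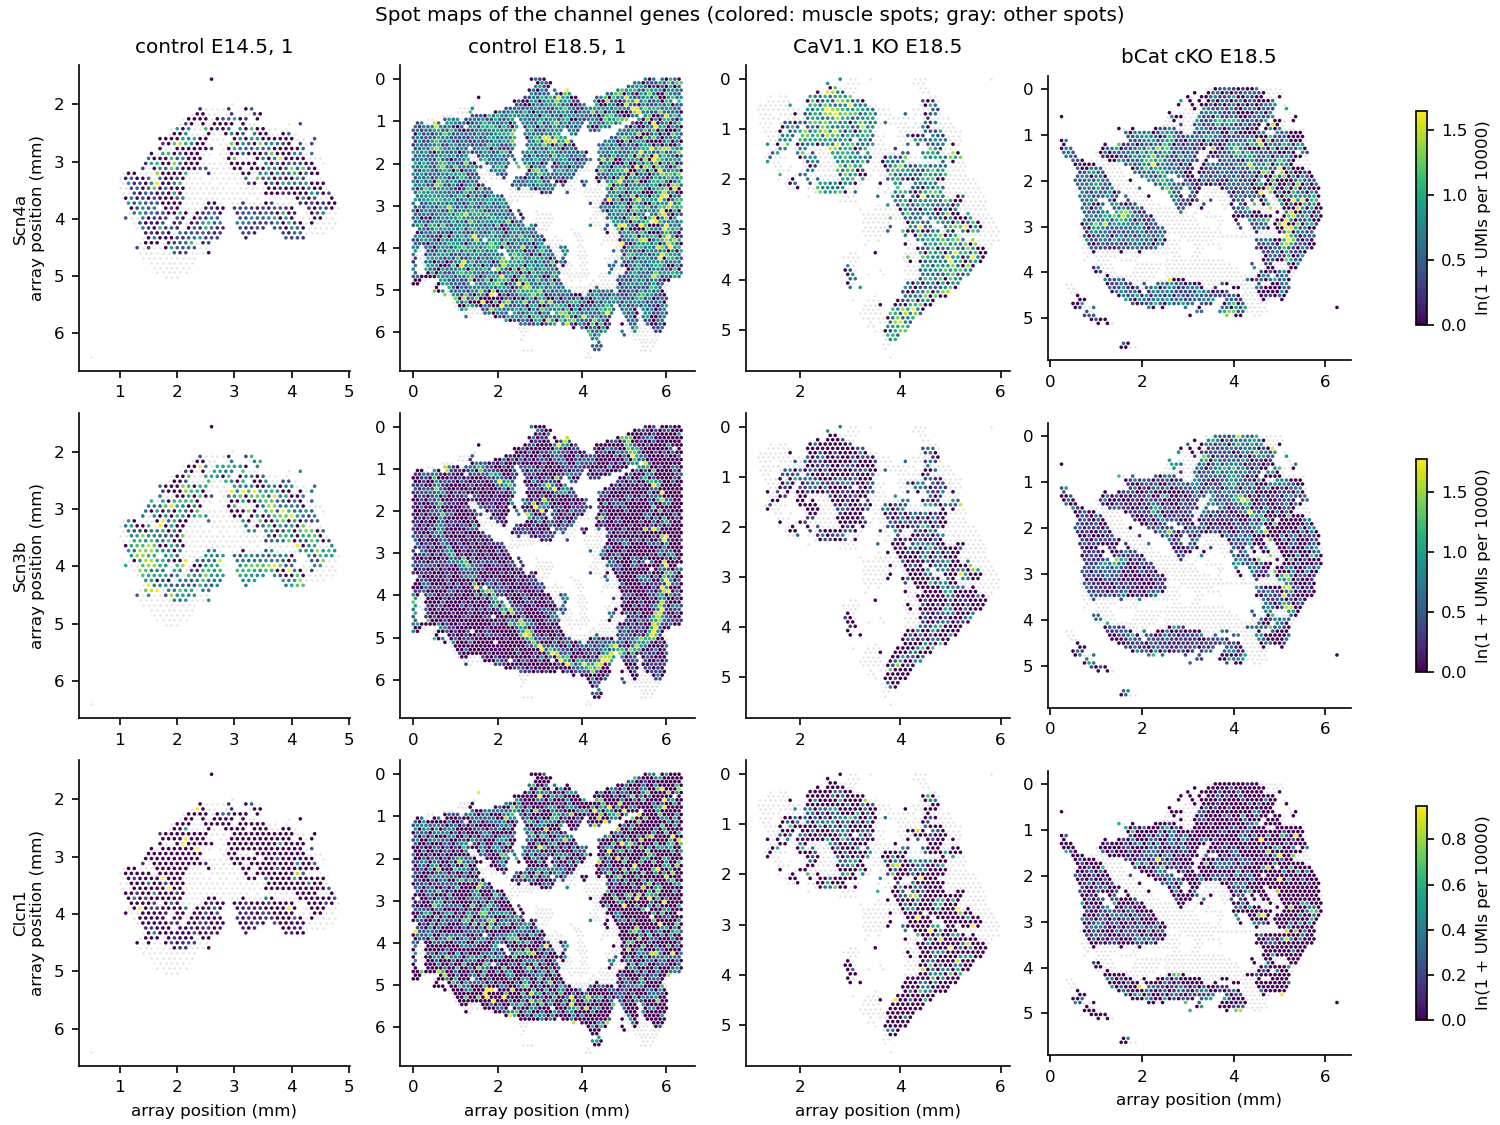
Spots of 4 sections at their position on the slide (mm), colored by the natural log of 1 plus the UMIs of Scn4a, Scn3b or Clcn1 per 10000 UMIs of the spot, with spots outside muscle in gray. In E18.5 control 1, Scn3b forms a narrow band along the muscle, where its center spots hold 179 CPM against 34.9 CPM or less in each class of distance from the center.

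Scn4a was also highest in the center, with a smaller and more graded difference. At E14.5 it stood at 77.4, 55.9 and 49.9 CPM in the center, 32.9, 21.5 and 35.0 in the intermediate muscle and 22.2, 13.9 and 26.8 at the periphery. At E18.5 the center held 206 and 217 CPM, the intermediate muscle 141 and 159, and the periphery 98.2 and 112. All 5 control sections therefore had the order center, intermediate, periphery. The center exceeded the intermediate muscle 2.19-fold at E14.5 (log2 1.13, SE 0.10, edgeR adjusted p = 2.86e-10) and 1.41-fold at E18.5 (0.50, SE 0.07, edgeR adjusted p = 1.59e-06), and this ratio fell with age (log2 −0.63, SE 0.11, edgeR adjusted p = 1.98e-04). The periphery was lower than the intermediate muscle at E14.5 (log2 −0.53, SE 0.14, edgeR adjusted p = 0.0127) and at E18.5 (−0.51, SE 0.07, edgeR adjusted p = 1.01e-06). Relative to the 9 muscle genes the fall of the ratio with age was −0.06 and the E18.5 difference of the periphery was −0.07, neither past the threshold, and the E14.5 periphery call was lost without E14.5 control 1 (edgeR adjusted p = 0.1501) or 2 (edgeR adjusted p = 0.139).

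Clcn1 was lowest at the periphery in all 5 controls, while the center was the highest region in the E14.5 controls and lay below the intermediate muscle in the E18.5 controls. In the E14.5 controls it stood at 8.12, 7.14 and 5.68 CPM in the center, 5.997, 5.28 and 3.94 in the intermediate muscle and 3.03, 2.19 and 0.84 at the periphery. These values rest on 36, 41 and 14 UMIs in the center, 97, 131 and 43 in the intermediate muscle and 9, 11 and 2 at the periphery. The center did not pass the test at that age (log2 0.45, SE 0.18, edgeR adjusted p = 0.0861), whereas the periphery was 2.43-fold lower (−1.28, SE 0.27, edgeR adjusted p = 0.00185). At E18.5 the center held 31.7 and 26.9 CPM, less than the 37.4 and 39.3 CPM of the intermediate muscle (log2 −0.38, SE 0.08, edgeR adjusted p = 0.00107), and the periphery held 21.4 and 21.0 (−0.85, SE 0.09, edgeR adjusted p = 1.84e-09). The ratio of center to intermediate muscle fell with age (log2 −0.83, SE 0.20, edgeR adjusted p = 0.00354). The lower center at E18.5 was not called relative to the 9 muscle genes (−0.10, edgeR adjusted p = 0.515) or without E18.5 control 2 (−0.24, edgeR adjusted p = 0.255).

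Of all genes tested, 7.16% were higher in the center at E14.5, 4.15% were higher and 7.93% were lower in the center at E18.5, 4.45% were lower at the periphery at E14.5 and 19.6% at E18.5, and the ratio of center to intermediate muscle rose with age for 5.31% and fell for 7.54%. Schwann cells cover the nerve terminals, and their 5 markers summed to 98 and 108 CPM (before TMM scaling) in the center of the E18.5 controls against 58 and 64 CPM in all muscle spots, while 5 axon markers summed to 3 and 14 CPM in the center and Chat had 0 to 2 UMIs per section. The part of Schwann cells in the center values was not tested. When center and periphery were set by distance to the nearest non-muscle spot in place of marker genes, the center differences of Scn3b were 0.16 at E14.5 and 0.19 at E18.5 and those of Scn4a 0.01 and 0.18, all without a call, and the gradients above hold for regions found by endplate genes.

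**Figure D4:**
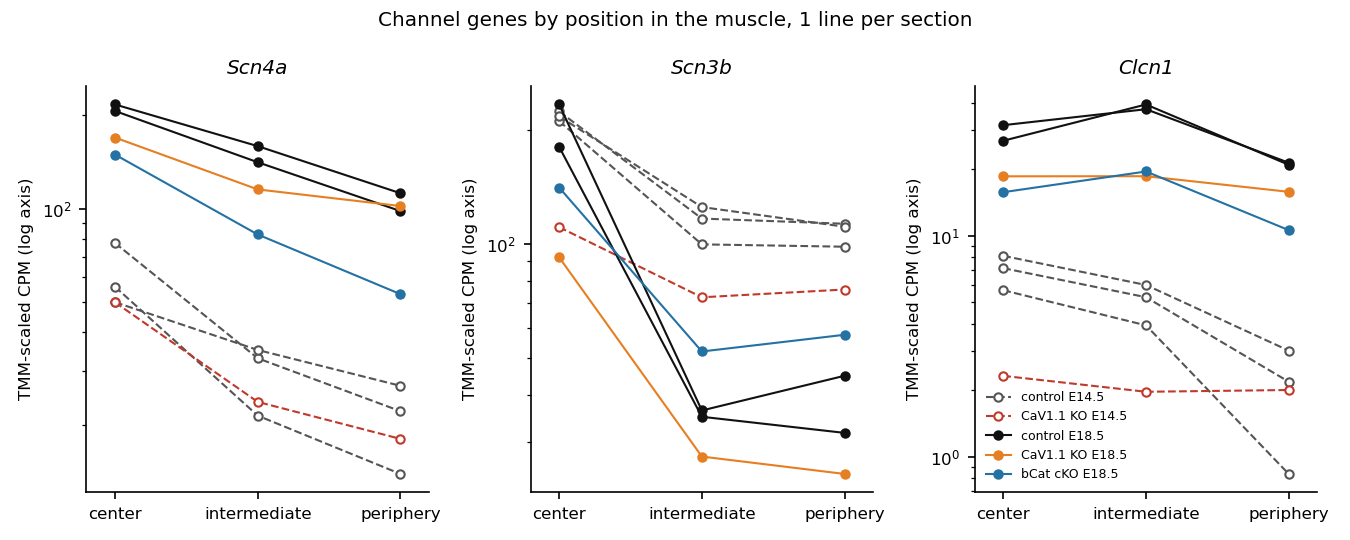
TMM-scaled CPM (log axis) of Scn4a, Scn3b and Clcn1 in center, intermediate and periphery muscle spots, with 1 line per section, dashed with open points at E14.5 and solid at E18.5. Scn3b drops from the center to intermediate muscle in all 8 sections and most steeply in the E18.5 controls, from 233.3 and 180.3 to 36.4 and 35.0.

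In the CaV1.1 KO, Scn3b and Clcn1 were lower than in the controls at E18.5. Scn3b stood at 35.9 CPM (619 UMIs) against 69.1 and 57.6 CPM in the controls, 1.77-fold lower (log2 −0.82, SE 0.16, edgeR adjusted p = 0.00985). Clcn1 stood at 17.9 CPM (309 UMIs) against 33.3 and 33.8 CPM, 1.87-fold lower (−0.91, SE 0.23, edgeR adjusted p = 0.0262). Scn4a stood at 119.2 CPM (2055 UMIs) against 142.7 and 158.7 CPM and did not pass the test (−0.34, 95% interval −0.86 to 0.18, edgeR adjusted p = 0.299). Of all genes tested, 15.2% were lower and 10.6% higher in this section. These falls rest on the scaling: with library totals the log2 differences were −0.28 for Scn3b (edgeR adjusted p = 0.146), −0.37 for Clcn1 (edgeR adjusted p = 0.182) and 0.20 for Scn4a, and relative to the 9 muscle genes all 3 turned positive, to 0.58, 0.50 and 1.07. On that last scale Scn4a was called higher (edgeR adjusted p = 1.40e-04), while Clcn1 was not called (edgeR adjusted p = 0.190). The share of higher genes among those called went from 41.1% to 90.6% and 99.2% under these scalings, with medians of all genes of 0.54 and 1.40. In intermediate spots alone the difference of Scn3b was −0.38 (edgeR adjusted p = 0.104). The paper reports that Chrna1 and Musk were broadly expressed in the muscle of this mutant. Its intermediate spots therefore cannot be taken as free of endplate transcripts. Endplate genes summed to 2020 CPM (before TMM scaling) in this section against 1046 and 1057 in the controls, Schwann markers to 177 against 58 and 64, smooth muscle markers to 189 against 306 and 311, and erythrocyte markers to 398 against 669 and 667. The part of these tissues in the values was not tested.

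At E14.5 no member passed the test in the CaV1.1 KO. Scn3b stood at 80.1 CPM against 116.2 to 136.1 in the controls (log2 −0.69, SE 0.14, edgeR adjusted p = 0.0636), and Clcn1 at 2.0 CPM (51 UMIs) against 3.7 to 6.0 (−1.29, SE 0.27, edgeR adjusted p = 0.0637). Both lay below all 3 controls, and both were called by DESeq2 (adjusted p = 9.84e-04 and 0.00223). Scn4a, at 28.02 CPM, lay within the controls' range of 25.7 to 39.7. Only 2.08% of all genes were called in either direction at this age. The change of the KO effect between the ages was not past the threshold for Scn4a (−0.08, 95% interval −0.80 to 0.65), Scn3b (−0.13, 95% interval −0.61 to 0.35) or Clcn1 (0.39, 95% interval −0.42 to 1.20), against 6.40% of all genes.

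In the bCat cKO, Clcn1 was lower and Scn3b was close to the controls. Clcn1 stood at 17.2 CPM (702 UMIs) against 33.3 and 33.8 CPM in the controls, 1.96-fold lower (log2 −0.97, SE 0.23, edgeR adjusted p = 0.0412). This call was lost without E14.5 control 2 (edgeR adjusted p = 0.0649), E18.5 control 1 (0.0584) or E18.5 control 2 (0.0744), although the difference stayed between −0.98 and −0.96, and it was −0.44 relative to the 9 muscle genes (edgeR adjusted p = 0.351). Scn4a stood at 85.6 CPM against 142.7 and 158.7 CPM and did not pass the test (−0.82, SE 0.23, edgeR adjusted p = 0.0672), while DESeq2 called it (adjusted p = 0.00763). Scn3b, at 64.6 CPM, lay between the controls' 57.6 and 69.1 (0.03, 95% interval −0.32 to 0.37), and its sign was negative without E18.5 control 2. Of all genes tested, 5.62% were lower and 3.18% higher. Smooth muscle markers summed to 559 CPM (before TMM scaling) in this section against 306 and 311 in the controls, erythrocyte markers to 305 against 669 and 667, and endothelial markers to 295 against 423 and 381, and their part in the values was not tested. With library totals and the 9 muscle genes the share of higher genes among those called went from 36.1% to 79.9% and 94.0%.

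Set in order, Scn4a was highest in the E18.5 controls, followed by the CaV1.1 KO and the bCat cKO of that age, the E14.5 controls and the CaV1.1 KO at E14.5, of which the last pair overlapped. For Clcn1 the E18.5 controls were followed by the CaV1.1 KO (17.9 CPM) and the bCat cKO (17.2 CPM), whose difference was 0.06 (95% interval −0.54 to 0.66, edgeR adjusted p = 0.905), and by the E14.5 groups. For Scn3b the order was E14.5 controls, CaV1.1 KO at E14.5, then bCat cKO and E18.5 controls without separation, and lowest the CaV1.1 KO at E18.5. Between both mutants of E18.5, Scn3b was 1.80-fold lower in the CaV1.1 KO (log2 −0.85, SE 0.18, edgeR adjusted p = 0.0324), against 4.43% of all genes that were lower, and relative to the 9 muscle genes this difference was 0.03. It was not called without E14.5 control 3 (edgeR adjusted p = 0.0712). Scn4a did not pass the test between them (0.48, 95% interval −0.12 to 1.07).

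The enrichment of Scn3b in center over intermediate spots was weaker in both mutants than in the controls of E18.5. In the CaV1.1 KO it stood at 92.2 CPM in the center and 27.5 in the intermediate muscle, and in the bCat cKO at 140.9 and 52.0, whereas the controls had 233.3 and 180.3 against 36.4 and 35.0. The log2 ratio of center to intermediate muscle differed from that of the controls by −0.79 in the CaV1.1 KO (SE 0.17, edgeR adjusted p = 0.00718) and by −1.10 in the bCat cKO (SE 0.12, edgeR adjusted p = 3.61e-06). Both center values lay below both controls, whereas intermediate muscle of the bCat cKO lay above them. Only 0.819% of all genes had a lower ratio in the CaV1.1 KO and 0.296% in the bCat cKO. Without E18.5 control 1 the CaV1.1 KO difference was −0.62 (edgeR adjusted p = 0.0534), and with regions set by distance the signs were positive for both mutants, 0.09 and 0.37, without a call. Summed endplate genes in the center were 4183 CPM (before TMM scaling) in the CaV1.1 KO and 2919 in the bCat cKO against 2993 and 2880 in the controls. In all muscle spots they summed to 2020 and 1212 CPM against 1046 and 1057. Relative to all muscle, the center was thus less set apart by endplate genes in both mutants. The part of this in the Scn3b ratios was not tested. By distance in the bCat cKO, Scn3b went from 123 CPM (before TMM scaling) in the center to 55.7, 45.2, 39.3 and 39.5 CPM.

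Scn4a and Clcn1 showed no called change of the center ratio in a mutant. Scn4a stood at 169, 115 and 102 CPM in center, intermediate and periphery of the CaV1.1 KO at E18.5 and at 149, 82.5 and 53.0 in the bCat cKO, with differences of the center ratio of 0.06 (edgeR adjusted p = 0.919) and 0.36 (edgeR adjusted p = 0.381). Relative to the 9 muscle genes the first was −0.43 (edgeR adjusted p = 0.0436). Clcn1 was flat in the CaV1.1 KO, at 18.6, 18.6 and 15.8 CPM, and stood at 15.8, 19.6 and 10.6 in the bCat cKO, with differences of 0.38 (edgeR adjusted p = 0.540) and 0.07 (edgeR adjusted p = 0.974).

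Fiber type composition was compared within the muscle of the E18.5 controls, as spots in the highest and lowest 25% of a score of 5 type IIb genes minus 6 type I genes. Clcn1 was higher in fast-rich spots (log2 0.55, SE 0.08, edgeR adjusted p = 1.06e-05), as was Scn4a (0.34, SE 0.05, edgeR adjusted p = 3.51e-05), against 10.2% of all genes, whereas Scn3b was lower (−1.06, SE 0.09, edgeR adjusted p = 1.03e-09), against 8.81%. Relative to the 9 muscle genes Scn4a was at −0.05 and Clcn1 at 0.16, neither past the threshold. Endplate genes moved with this split: they summed to 840 and 922 CPM (before TMM scaling) in fast-rich spots and 1329 and 1301 in slow-rich spots. In intermediate spots alone, without the endplate band, the difference of Scn3b was −0.15 (edgeR adjusted p = 0.470), while those of Scn4a and Clcn1 kept their calls. Without the section as a block none of the 3 genes was called.

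The other sodium channel genes did not all move as Scn4a did. Of 11 alpha subunit genes (Scn4a included, with the related leak channel Nalcn) 10 were tested, and with age 5 rose, Scn4a among them, 2 fell and 3 did not pass the test, with a median log2 difference of 1.80 against −0.01 over all genes, of which 33.2% rose and 32.3% fell. On the log2 scale Scn7a rose by 3.62, Scn3a by 2.62 and Scn2a by 1.63, while the neuronal genes Scn8a (−1.07) and Scn10a (−3.02) fell.

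Among the beta subunit genes, Scn4b (5.50) rose with age, while Scn2b (−0.84) and Scn3b fell. Scn4b stood at 1.6, 1.0 and 1.0 CPM in the E14.5 controls and at 52.7 and 57.2 at E18.5. In the bCat cKO Scn4b was at 1.9 CPM (77 UMIs), a log2 difference of −4.86 from the E18.5 controls (SE 0.26, edgeR adjusted p = 2.58e-04), close to the values of the E14.5 controls. The difference of Scn4b was −4.34 relative to the 9 muscle genes. Scn3a (−0.61, edgeR adjusted p = 0.0465) was lower in the bCat cKO too. In the CaV1.1 KO at E18.5, Scn4b (−0.81), Scn3a (−0.81) and Scn2a (−1.40) fell and Scn8a (1.25) rose, and the 3 falls were 0.59, 0.60 and 0.01 relative to the 9 muscle genes. At E14.5 Scn4b (−3.30, 3 UMIs in the KO against 16 to 38 in the controls, edgeR adjusted p = 0.0257) and Scn3a (−1.06, edgeR adjusted p = 0.0351) were lower in the CaV1.1 KO.

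**Figure D5:**
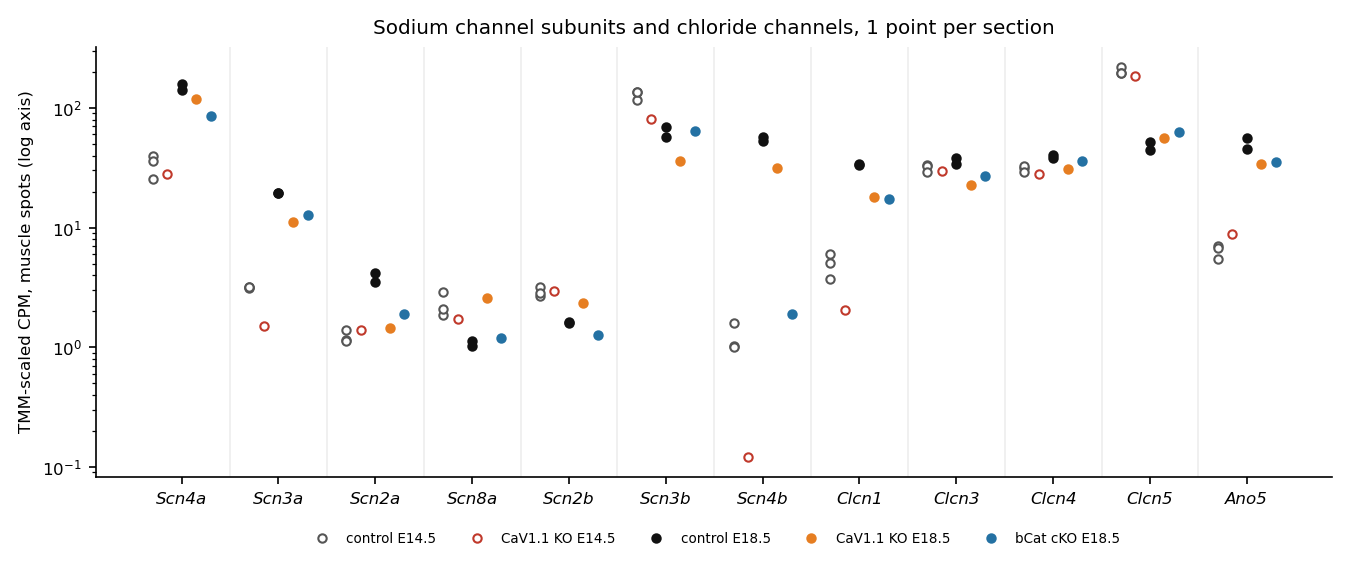
TMM-scaled CPM in muscle spots (log axis) of 12 sodium and chloride channel genes, with 1 point per section. Scn4b stands at 52.7 and 57.2 in the E18.5 controls and at 1.9 in the bCat cKO, below the 31.3 of the CaV1.1 KO.

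Genes that anchor or modify sodium channels were mixed: of 10 tested, 5 rose and 4 fell with age (median log2 difference 0.39), against 33.2% and 32.3% of all genes. The rises included Ank3 (1.37), which encodes the anchor ankyrin-G, and it fell in the CaV1.1 KO at E18.5 (−0.79), where 3 of the 10 were lower against 15.2% of all genes. Ank3 was also lower in the bCat cKO (−0.87). Both falls of Ank3 are on the TMM scale, and its values under the other scalings are not given here. In the bCat cKO 1 of the 10 was lower and 1, Fgf11, was higher (0.85), against 5.62% and 3.18% of all genes.

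For the chloride side, 9 of the 11 genes of the CLC family, including the accessory subunits Ostm1 and Bsnd, could be tested. With age 3 rose and 4 fell (median 0.08), close to the 33.2% and 32.3% of all genes. Clcn5, which encodes an endosomal exchanger, fell (−2.08), whereas Ostm1 rose by 1.08 and Clcn4 by 0.33. In the CaV1.1 KO at E18.5, 2 of the 9 were called lower, Clcn1 and Clcn3 (−0.67), and in the bCat cKO 1, Clcn1, against 15.2% and 5.62% of all genes. The fall of Clcn3 is on the TMM scale, and its value under the other scalings is not given here. Of 10 other chloride channel and carrier genes 7 rose and 1 fell with age, against 33.2% and 32.3% of all genes, and the rises were led by Ano5 (3.001), a gene whose loss causes muscular dystrophy. Of these genes 2 were lower in the CaV1.1 KO at E18.5 and 1 in the bCat cKO, against 15.2% and 5.62% of all genes.

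Clcn1 transcripts are spliced to their adult form by muscleblind proteins. Mbnl1 (1.71) and Mbnl2 (1.64) rose with age, and Mbnl3 (−1.15) and the opposing factors Celf1 (−0.52) and Celf2 (−0.37) fell. Mbnl1 was lower in the CaV1.1 KO at E18.5 (−0.72) and in the bCat cKO (−0.77), and Mbnl2 in the CaV1.1 KO (−0.61). All these values are on the TMM scale. Falls of Scn3b and Clcn1 in the CaV1.1 KO at E18.5 depended on that scaling, and the splicing factors under other scalings are not given here. The assay reads probes and gives no splice forms.

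Genes that set the resting potential and the ion gradients rose with Scn4a and Clcn1: 8 of 9 were higher at E18.5 (median 2.50), against 33.2% of all genes, among them the inward rectifiers Kcnj12 (3.03) and Kcnj2 (0.79). In the CaV1.1 KO at E18.5, 7 of the 9 were lower (median −0.76), against 15.2% of all genes, and in the bCat cKO 4 were lower, against 5.62%, led by Kcnj2 (−1.41). All 11 T-tubule and calcium release genes, among them Ryr1 and Casq1, were higher at E18.5 (median 2.17), against the same 33.2%, and 9 of the 11, with the targeted gene Cacna1s, were lower in the CaV1.1 KO at E18.5, against 15.2%. In the bCat cKO edgeR called 0 of the 11, with 5 at an unadjusted p under 0.05, and DESeq2 called 1 higher and 3 lower. The share of all genes called by DESeq2 is not given here. Relative to the 9 muscle genes the stage counts changed to 0 higher and 5 lower of the 9 membrane genes and to 1 higher and 9 lower of the 11 T-tubule genes, and in the CaV1.1 KO at E18.5 to 6 and 8 higher with 0 lower. On that scale nearly all genes that differed were lower at E18.5 and higher in this KO, so these counts do not set the lists apart.

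The 5 genes closest to each member over the 24 region sums, by Pearson r of log2 TMM-scaled CPM among 8236 genes, were Kcnj12 (0.98), Prkaa2 (0.97), Gpc4 (0.95), Asb16 (0.95) and Arhgef3 (0.95) for Scn4a. For Clcn1 they included Ppp1r3a, Cmbl, Lrrc20 and Klf15, all at 0.96. Scn3b had weaker matches, Zfp251 and Il18bp (both 0.88), Vac14 (0.86), Ccnd3 (0.85) and Efnb1 (0.83). The 24 sums come from 8 sections and share their libraries, so these values describe likeness and carry no p.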

How the data were processed

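Visium libraries of 8 diaphragm sections were analysed, 1 per embryo, so that embryos are the replicates within a group. The deposited values are UMI counts for each gene in each spot, made by the authors with Space Ranger (per the file headers 2.0.0 in 3 sections and 2.0.1 in 5), for the mm10 mouse probe set, without normalization. The submitters' notes also name Seurat. A count of probe ligations does not see splicing, and a depleted or low gene is limited by counting error, so UMIs are given beside the lowest levels.

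Spots with at least 1000 UMIs were kept and classed as muscle by Otsu's threshold, set in each section, on the mean log-normalized level (per 10000 UMIs) of 9 muscle genes. Spot barcodes are array positions, and 150 to 2153 were shared between a pair of sections. Counts were summed per section and spot class and tested in edgeR 4.0.16 (R 4.3.3) with its expression filter, TMM scaling and the quasi-likelihood F test. All 5 groups shared 1 fit for muscle (8 sums, 3 residual degrees of freedom). Fits of regions (24 sums, 6 degrees of freedom), muscle against other spots (10 sums, 3) and fiber-rich spots (8 sums, 1) had the section as a block, since both sums came from 1 embryo. The deviations of center and intermediate sums of a section from their group means had correlations of 0.52, 0.48 and 0.17 in the E14.5 controls. The standard error is the absolute log2 difference divided by the square root of F. DESeq2 1.42.0 and other alternatives are in the closing section, and the tests were first checked on simulated data.

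Scn4a, Scn3b and Clcn1 and the gene lists were chosen with earlier results of these data known. Genes named in the text are the members, the genes of these lists, the 5 genes nearest to each member by Pearson r among genes whose log2 CPM averaged 4 or more, and the targeted genes Cacna1s and Ctnnb1. A few genes of these sets are counted in the totals but not reported here by name. Promoter sequences come from RefSeq (GRCm38.p6). Deposited spatial autocorrelation scores and images were not used here, and other spot-level tests were not run because spots of a section are not replicates.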

Additional observations from a re-analysis of the deposited data

Results flagged for a closer look

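These results differed between groups by a test of the difference itself, as an interaction of region with age or genotype in edgeR (Benjamini-Hochberg adjusted p over all genes).

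Between E14.5 and E18.5 the log2 ratio of center to intermediate muscle changed in the controls by −0.83 for Clcn1 (SE 0.20, edgeR adjusted p = 0.00354), by −0.63 for Scn4a (SE 0.11, edgeR adjusted p = 1.98e-04) and by 1.58 for Scn3b (SE 0.09, edgeR adjusted p = 5.77e-14).

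The ratio of the beta subunit gene Scn4b also changed with age, by −1.84 (SE 0.32, edgeR adjusted p = 9.57e-05). It stood at 5.42, 2.44 and 2.03 CPM in the center and 0.80, 0.89 and 0.92 in the intermediate muscle of the E14.5 controls (24, 14 and 5 UMIs against 13, 22 and 10), and at 61.1 and 65.2 against 56.4 and 61.9 at E18.5.

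In the mutants of E18.5 the center ratio of Scn3b was lower than in the controls, by −0.79 in the CaV1.1 KO (SE 0.17, edgeR adjusted p = 0.00718) and by −1.10 in the bCat cKO (SE 0.12, edgeR adjusted p = 3.61e-06). The ratio of Scn4b was higher in the CaV1.1 KO, by 0.69 (SE 0.18, edgeR adjusted p = 0.0236), with 50.1 CPM in the center and 29.1 in the intermediate muscle. Of 14170 genes tested for this ratio, 469 were called in either direction, 116 of them lower. Each mutant is 1 section, and the differences of Scn4a, Scn3b and Clcn1 under other processing are given next. Center ratios of Scn4b under other processing are not given here.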

How the results depend on the processing

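Of 657 values recomputed for Scn4a, Scn3b and Clcn1 in 16 comparisons, 558 kept their direction and, where a test was run, their side of the threshold, 44 lost a call, 21 gained one and 34 changed sign, none of which had its cause tested. In the values that follow (log2 differences), center and periphery are relative to intermediate muscle. With DESeq2's Wald test the call was lost for Clcn1 for center at E18.5 (−0.37), for the center ratio with age (−0.86) and Scn4a for fast-rich against slow-rich spots (0.35). A call was gained there for Scn3b in the CaV1.1 KO at E14.5 (−0.71), Clcn1 in the CaV1.1 KO at E14.5 (−1.32) and Scn4a in the bCat cKO (−0.81). With no filter on low counts a call was gained for Scn3b in the CaV1.1 KO at E14.5 (−0.69), Clcn1 in the CaV1.1 KO at E14.5 (−1.30) and Scn4a in the bCat cKO (−0.83), for the center ratio in the bCat cKO (0.36). With scaling to the 9 muscle genes the sign turned for Scn4a for stage (−0.99), in the CaV1.1 KO at E14.5 (0.31), in the CaV1.1 KO at E18.5 (1.07), for the change of the KO effect with age (0.75), for the center ratio in the CaV1.1 KO (−0.43), for fast-rich against slow-rich spots (−0.047), Clcn1 for stage (−0.40), in the CaV1.1 KO at E18.5 (0.50), for the center ratio in the CaV1.1 KO (−0.11) and Scn3b in the CaV1.1 KO at E18.5 (0.58), for the change of the KO effect with age (0.71), between the mutants (0.033). A loss of the call followed there for Clcn1 in the bCat cKO (−0.44), for center at E18.5 (−0.10), for the center ratio with age (−0.27), for fast-rich against slow-rich spots (0.16) and Scn4a for periphery at E18.5 (−0.071), for the center ratio with age (−0.064). A call was gained there for Scn4a between the mutants (1.36) and Scn3b for periphery at E18.5 (0.53). Turned signs of Scn4a past the threshold there included those for stage, in the CaV1.1 KO at E18.5 and for the center ratio in the CaV1.1 KO. With scaling to library totals, chosen after seeing the data, the sign turned for Scn4a in the CaV1.1 KO at E18.5 (0.20), for the change of the KO effect with age (0.45), for the center ratio in the CaV1.1 KO (−0.14) and Scn3b for the change of the KO effect with age (0.40). A loss of the call followed there for Scn3b in the CaV1.1 KO at E18.5 (−0.28), between the mutants (−0.53), for muscle against other spots at E18.5 (0.34) and Clcn1 in the CaV1.1 KO at E18.5 (−0.37). A call was gained there for Scn3b for periphery at E18.5 (0.32). With all spots over tissue the sign turned for Scn3b in the bCat cKO (−0.16), for the change of the KO effect with age (0.15). A loss of the call followed there for Scn3b between the mutants (−0.61). A call was gained there for Clcn1 in the CaV1.1 KO at E14.5 (−1.31) and Scn4a in the bCat cKO (−1.10). With intermediate muscle spots only the sign turned for Scn3b for the change of the KO effect with age (0.27) and Clcn1 between the mutants (−0.073). Lost there was the call of Scn3b in the CaV1.1 KO at E18.5 (−0.38), for fast-rich against slow-rich spots (−0.15). With only the sections of the groups compared a call was gained for Scn3b in the CaV1.1 KO at E14.5 (−0.70) and Scn4a in the bCat cKO (−0.82). With no replicate block, that is without the section as a pairing term, the call was lost for Scn4a for center at E18.5 (0.50), for periphery at E14.5 (−0.56), for periphery at E18.5 (−0.51), for fast-rich against slow-rich spots (0.34), Clcn1 for center at E18.5 (−0.39), for periphery at E14.5 (−1.28), for fast-rich against slow-rich spots (0.55) and Scn3b for fast-rich against slow-rich spots (−1.06). With regions of 10% the sign turned for Scn4a for the center ratio in the CaV1.1 KO (−0.14). Lost there was the call of Clcn1 for the center ratio with age (−0.71). With regions of 25% the sign turned for Clcn1 for the center ratio in the bCat cKO (−0.14). Lost there was the call of Scn4a for periphery at E14.5 (−0.38). A call was gained there for Scn3b for periphery at E18.5 (0.25). With regions set by distance to other spots the sign turned for Clcn1 for center at E18.5 (0.12), for the center ratio in the CaV1.1 KO (−0.10), Scn3b for periphery at E18.5 (−0.52), for the center ratio in the CaV1.1 KO (0.089), for the center ratio in the bCat cKO (0.37) and Scn4a for the center ratio with age (0.17). Lost there was the call of Scn4a for center at E14.5 (0.0054), for center at E18.5 (0.18), Scn3b for center at E14.5 (0.16), for center at E18.5 (0.19), for the center ratio with age (0.027) and Clcn1 for periphery at E14.5 (−0.51), for the center ratio with age (−0.091). A call was gained there for Scn3b for periphery at E14.5 (−0.40).

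Leaving out 1 control section at a time, Scn4a ranged from −0.89 to −0.74 in the bCat cKO (called without E14.5 control 1 or 2), from −0.22 to 0.094 for the change of the KO effect with age (positive without E14.5 control 2 or E18.5 control 2) and from −0.60 to −0.48 for periphery at E14.5. Scn3b ranged from −0.76 to −0.65 in the CaV1.1 KO at E14.5 (called without E18.5 control 1 or 2), from −0.10 to 0.16 in the bCat cKO, from −0.25 to 0.0087 for the change of the KO effect with age (positive without E18.5 control 1), and from −0.85 to −0.85 between the mutants. It ranged from 0.75 to 1.25 for muscle against other spots at E18.5, from −0.14 (without E18.5 control 1) to 0.31 (called, without E18.5 control 2) for periphery at E18.5 and from −0.94 to −0.62 for the center ratio in the CaV1.1 KO. Clcn1 ranged from −0.98 to −0.96 in the bCat cKO, from −0.54 to −0.24 for center at E18.5, from −1.46 to −1.14 for periphery at E14.5 (not called without E14.5 control 2, edgeR adjusted p = 0.0789), from −0.995 to −0.69 for the center ratio with age (not called without E14.5 control 2, edgeR adjusted p = 0.0513), and from −0.073 (without E18.5 control 2) to 0.23 for the center ratio in the bCat cKO. For fast-rich against slow-rich spots, leaving out a section gives a value without a test, and Scn3b ranged there from −1.36 to −0.75. 

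With the replicate block, the replicate number of the labels as a pairing term between ages, the stage differences were 2.24 for Scn4a, −0.99 for Scn3b and 2.61 for Clcn1, all still called, with 9034 genes called in place of 9726. Deviations of the same-numbered sections had correlations of −0.33 and −0.32, so these sections share only a number. The comparison of the mutants with only its own sections was not run, as it holds 1 section each. Counts of called genes over all alternatives went from 8534 to 14207 for stage (as reported 9726), 65 to 4939 for the CaV1.1 KO at E14.5 (308), 2398 to 12468 at E18.5 (3819), 576 to 3886 for the bCat cKO (1305), 512 to 8482 between the mutants (1082), 2991 to 6030 and 5803 to 10670 for muscle against other spots (5789 and 8180), 2 to 7492 and 26 to 4910 for center (2056 and 1711), 47 to 1970 and 990 to 8827 for periphery (1085 and 4369), 8 to 9516 for the center ratio with age (1822), and 2 to 9566 for fiber types (2670). edgeR called 0 to 4715 genes for the change of the KO effect (949), with 0 without E14.5 control 3 (3233 at an unadjusted p under 0.05), and 0 to 3497 and 0 to 139 for the center ratio in the CaV1.1 KO and the bCat cKO (469 and 52), with 0 for regions set by distance (663 and 363 at an unadjusted p under 0.05). By DESeq2 these 3 counts were 1582, 235 and 9. Scaling also moved the share of higher genes among those called. With the 9 muscle genes and with library totals, in this order, it went from 49.4% to 2.90% and 37.3% for center at E14.5, from 34.4% to 99.0% and 85.8% for center at E18.5, from 41.9% to 11.98% and 58.1% for periphery at E14.5, from 36.5% to 97.5% and 82.8% for periphery at E18.5, from 41.3% to 99.6% and 84.7% for the center ratio with age, from 75.3% to 0.143% and 10.0% for that ratio in the CaV1.1 KO, and from 53.6% to 1.74% and 15.9% for fiber types. It went from 34.7% to 98.9% and 94.7% for the change of the KO effect, from 39.3% to 97.4% and 84.3% between the mutants, from 25.6% to 96.8% with the 9 muscle genes in the CaV1.1 KO at E14.5, and with library totals from 56.0% to 27.8% and from 53.8% to 15.7% for muscle against other spots at E14.5 and E18.5. Depth limits Clcn1 at E14.5, with 51 to 183 UMIs in the muscle of a section and 2 to 11 at the periphery of a control. With 1 section per mutant group and 3 residual degrees of freedom in the muscle fit, a difference that missed the threshold is not shown to be absent.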
